A study of Mus musculus with 6 samples.

Results

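The genes described are 40 components of the machinery that drives and carries out cell division, from cyclins and their kinase to the spindle checkpoint, the spindle motors and the separase pathway. They were chosen by symbol, and all 40 were found among the 32285 genes of the deposited tables. They were read in single-cell RNA sequencing (10x Genomics, 3′ tags with molecular identifiers, UMIs) of whole testes from 6 male C57BL/6J mice, with 1 library per mouse made from both testes. The 3 control mice drank plain water, and the 3 nicotine mice drank water with nicotine at 200 µg/mL for 8 weeks, starting at 3 weeks of age; all were 11 weeks old at sampling and carried no engineered allele according to the labels. The amount of nicotine each mouse took in was not analysed here, and p-values over mice measure only the spread between these 6 animals.

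The testis runs mitosis and meiosis side by side. Spermatogonia divide by mitosis under cyclin A2, cyclin B and the kinase Cdk1, whereas spermatocytes replicate their DNA once, pass through a long prophase in which chromosomes pair and recombine, and then divide in quick succession at the end of it. The meiotic divisions use much of the same apparatus, together with parts that are known mainly from germ cells, such as cyclin A1 (Ccna1), Aurora kinase C (Aurkc) and the kinetochore protein Meikin. Their products, the round spermatids, no longer divide and reshape into elongating spermatids.

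The tables held 10823 to 12317 cell barcodes per mouse, and 61945 cells were kept after filters and doublet removal, with a median of 2202 to 2901 UMIs per cell and mouse. Any pair of libraries shared 25 to 54 barcodes, at most 0.467% of the smaller library. Cells were clustered without the 40 genes and without 2 further lists of division and replication genes, so that the levels of the members did not shape the clusters. Clusters were named from marker genes, and every class name below stands for a class that resembles that cell type (spermatogonium-like and so on). From these, 16 germ cell clusters were set in order by the markers of the neighbouring stages. Germ cell clusters whose median lay below 2467 UMIs, the median of all kept cells, were called low-UMI classes. Spermatocyte clusters above that median with over 7.5% of UMIs from very long genes formed a long-transcript class of 1468 cells. Neither kind was placed in the order. Joint or unnamed clusters and those with under 5 cells in a mouse were also left out. Round spermatid clusters needed a median of 5000 UMIs, which left out a cluster of 1808 cells (median 3733.5). Elongating clusters had no such limit, so the ordered round clusters were chosen for depth. Levels of the round class still include the cluster left out. The spermatogonium class held 81 cells, 9 to 17 per mouse, with Crabp1, Dmrt1, Uchl1 and Stra8 among its leading genes. It held 13 enriched markers of spermatogonia and 10 of early spermatocytes. These marker sets took 0.252 and 0.21% of its UMIs. Cells about to enter meiosis may thus be mixed in, and mitosis was not separated from that entry within the class. It is the smallest class, and its values carry the largest counting error. Levels are CPM (UMIs of a gene scaled to a fixed total of UMIs per class and mouse) or mean UMIs per cell. Levels by class pool the clusters of a stage. Levels along the order are descriptions without a test, as mean ± SD over n = 6 mice. Values for single mice are given in the order control 1, 2 and 3, then nicotine 1, 2 and 3.

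The stretch before the transcription start was looked at first for what the members share in sequence. Many genes of the G2 and M phases are known to carry CCAAT boxes, bound by the factor NF-Y, and a CHR element, whose best-known form is TTTGAA. RefSeq promoter windows (GRCm38.p6, 250 bases before the start) were found for 30 of the 40 members and were searched on both strands for these letters and for TTTAAA, another CHR form. The CCAAT box, or its reverse complement ATTGG, stood in 25 of the 30 windows (83.3%) and in 34.5% of the windows of all 27025 genes. The CHR letters TTTGAA, or TTCAAA when read on the other strand, stood in 9 of the 30 (30%) against 16.3% of all, and the form TTTAAA in 5 (16.7%) against 12.1%. The 9 windows with TTTGAA were those of Bub3, Ccnb2, Cdc20, Cdk1, Espl1, Kif11, Mki67, Top2a and Ube2c. Each of these also held CCAAT (30%), a pairing found in 5.73% of all windows. The 5 windows without CCAAT were those of Mad2l1, Aurkc, Pttg1, Birc5 and Ccnb3. A match describes letters and not binding.

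The 4 windows below show these arrangements in genes on which the results turn. Cdk1 and Ccnb2 hold the letters of both motifs, Ccna1 has CCAAT alone, and Aurkc has neither. Capitals mark the CCAAT box and the TTTGAA form of the CHR on either strand, and each window is read 5′ to 3′ on the strand of its gene. The windows lie at chr10:69352913-69353162 (minus strand) for Cdk1, chr9:70421555-70421804 (minus) for Ccnb2, chr3:55055056-55055305 (minus) for Ccna1 and chr7:6995135-6995384 (plus) for Aurkc. Only the first RefSeq window of each gene was used. By the GENCODE annotation the Ccna1 window lies inside its gene (55045469 to 55055501), and the Cdk1 and Aurkc windows cross their annotated starts. What these windows hold thus depends on the start chosen.
Cdk1: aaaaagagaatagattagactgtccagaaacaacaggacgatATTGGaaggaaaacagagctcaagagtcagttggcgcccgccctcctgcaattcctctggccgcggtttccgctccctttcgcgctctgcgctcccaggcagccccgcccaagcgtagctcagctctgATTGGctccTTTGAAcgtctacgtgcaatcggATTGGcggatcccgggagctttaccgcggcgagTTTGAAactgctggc
Ccnb2: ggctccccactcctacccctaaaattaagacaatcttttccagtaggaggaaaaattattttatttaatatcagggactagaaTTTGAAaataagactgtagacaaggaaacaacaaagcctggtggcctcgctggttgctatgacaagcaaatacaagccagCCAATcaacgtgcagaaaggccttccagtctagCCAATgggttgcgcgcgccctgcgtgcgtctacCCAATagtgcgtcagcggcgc
Ccna1: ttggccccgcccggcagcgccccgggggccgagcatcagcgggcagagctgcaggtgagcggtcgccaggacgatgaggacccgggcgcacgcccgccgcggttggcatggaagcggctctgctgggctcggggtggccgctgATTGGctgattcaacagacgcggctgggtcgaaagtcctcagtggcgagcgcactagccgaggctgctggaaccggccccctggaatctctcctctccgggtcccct
Aurkc: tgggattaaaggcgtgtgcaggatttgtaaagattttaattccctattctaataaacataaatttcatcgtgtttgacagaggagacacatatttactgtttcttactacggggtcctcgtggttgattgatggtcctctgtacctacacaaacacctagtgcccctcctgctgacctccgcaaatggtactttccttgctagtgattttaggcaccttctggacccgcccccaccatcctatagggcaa

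Of the 40 members, 14 had their highest class mean (CPM) in spermatogonia, 6 in early spermatocytes, 7 in pachytene spermatocytes, 12 in late spermatocytes, 1 (Cdc25c) in round spermatids and 0 in elongating spermatids. The spermatogonial members were Ccna2, Cdc25a, Cdc25b, Bub1b, Aurkb, Incenp, Cenpe, Cenpf, Kif11, Tpx2, Mki67, Espl1, Ube2c and Wee1. By single cluster, Cdc25a, Cdc25b, Cenpe, Cenpf and Tpx2 had their highest mean elsewhere. Spermatogonia were the highest of the 16 clusters in 6 of 6 mice for Ccna2 and 5 for Kif11. It was 3 of 6 for Bub1b, Aurkb, Incenp, Mki67, Espl1 and Ube2c, and 2 for Wee1. The unit mattered, because cells differ in their UMI total: pachytene spermatocytes had a median of 26990 UMIs per cell and spermatogonia 6775. Counted as UMIs per cell, 22 members were highest in pachytene spermatocytes, 13 in late spermatocytes and 3 in spermatogonia. In cells with at least 1000 UMIs the counts by CPM were the same as in all cells.

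**Figure D1:**
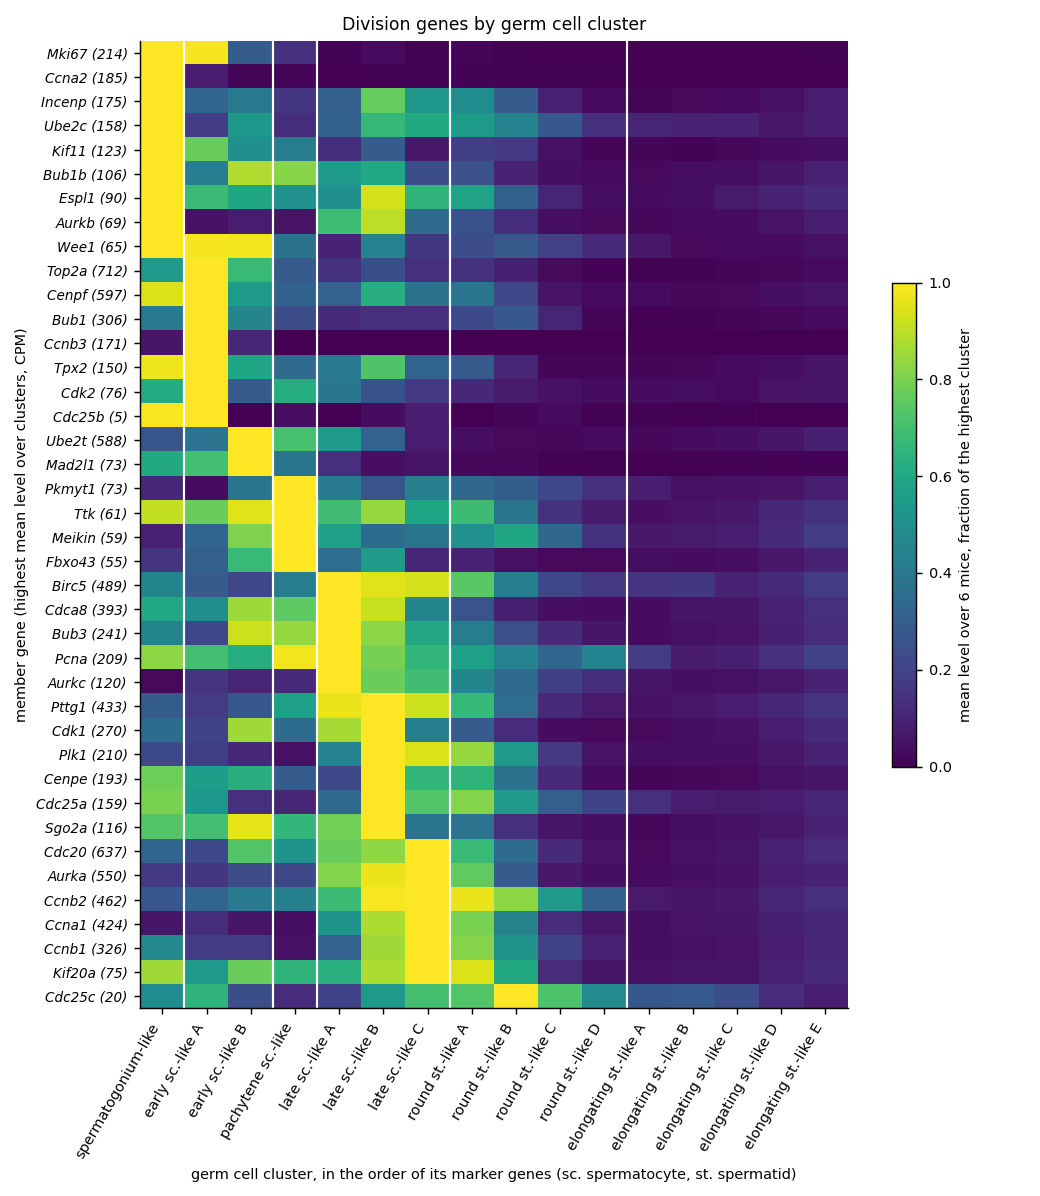
Mean level over 6 mice of each of the 40 members (rows) in 16 germ cell clusters (columns, in the order of their marker genes), coloured as a fraction of the member's highest cluster; the number beside each name is that highest mean in CPM. Ccna2 is bright only in the spermatogonium cluster (185 CPM) and Ccnb3 only in early spermatocyte cluster A (171 CPM), while Ccna1 is brightest in late spermatocyte cluster C (424 CPM).

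The A-type cyclins had opposite orders between the spermatogonium class and late spermatocytes. Ccna2, the cyclin A of S phase and mitosis, stood at 91.3, 288, 137, 76.8, 272 and 243 CPM in spermatogonia (185 ± 94.1, from 102 UMIs in all). Its mean was 14.2 CPM in early spermatocyte cluster A and 1.39 CPM in late spermatocyte cluster B, so every mouse was higher in spermatogonia than in any of the 3 late clusters. Ccna1 had the opposite order, with 10.1, 15.1, 36.6, 8.54, 36.3 and 48.6 CPM in spermatogonia and 444, 474, 410, 410, 445 and 359 CPM in late spermatocyte cluster C. No mouse's spermatogonial value of Ccna1 reached any of its late clusters. With every cell thinned to 3000 UMIs, Ccna2 was seen in 22 of 57 spermatogonia (38.6%; 60.5% without thinning), 0.365% of late spermatocytes (2.12% without thinning) and 0.310% of Leydig cells, which should lack it. Ccna1 was seen in 65.5% of late spermatocytes, in 7.02% of spermatogonia and in 9.91% of Leydig cells, so its signal in spermatogonia lay below that of cells which do not divide.

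Proliferation and spindle genes followed Ccna2 in part. Mki67, the proliferation marker Ki-67, was at 101, 257, 219, 93.9, 308 and 306 CPM in spermatogonia (214 ± 96.2), at 211 ± 54.7 in early spermatocyte cluster A and at 6.55 in late spermatocyte cluster B. Its mice overlapped between spermatogonia and the entry to meiosis, and it was low at the meiotic divisions. Kif11, the motor that pushes spindle poles apart, was at 81.2, 182, 137, 93.9, 90.7 and 153 CPM in spermatogonia (123 ± 40.4) and at 36.0 CPM in late cluster B. Bub1b (BubR1), of the spindle checkpoint, was at 112, 90.8, 119, 76.8, 109 and 132 CPM in spermatogonia (106 ± 19.8) and at 63.6 CPM in late cluster B. Ccna2, Cdk2, Bub1, Bub1b, Mad2l1, Kif11, Top2a, Mki67 and Wee1 were higher in spermatogonia than in each late cluster in 6 of 6 mice.

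Other members with their highest class in spermatogonia had similar means in late cluster B. The passenger complex, which corrects chromosome attachment, shows this. Aurkb, its mitotic kinase, was at 91.3, 106, 45.7, 59.8, 18.1 and 90.3 CPM in spermatogonia (68.5 ± 33.3) and at 61.8 ± 4.41 CPM in late cluster B, with overlapping mice. Incenp, its scaffold, was at 112, 272, 110, 102, 218 and 236 CPM in spermatogonia (175 ± 75.6) and at 133 ± 7.95 CPM in late cluster B. The other subunits, Birc5 (survivin) and Cdca8 (borealin), had their highest class in late spermatocytes.

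In spermatogonia Birc5 was at 162, 424, 174, 222, 127 and 215 CPM (221 ± 105) and Cdca8 at 173, 303, 256, 179, 218 and 285 CPM (235 ± 54.4). Both were thus among the 5 most abundant members there, although their class maximum lay elsewhere, and so was Top2a at 335, 575, 311, 307, 417 and 354 CPM (383 ± 102).

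The kinetochore and spindle proteins with a spermatogonial maximum by class varied widely among mice. Cenpf was at 315, 787, 576, 461, 308 and 938 CPM (564 ± 256), the highest of all members in spermatogonia. It had 597 ± 104 CPM in early cluster A and 373 CPM in late cluster B. Cenpe, a kinetochore motor, was at 91.3, 75.7, 192, 137, 163 and 243 CPM (150 ± 62.9), and its mean in late cluster B was higher, at 193 ± 18.3 CPM. Both genes were thus present in the spermatogonium class and in late spermatocytes. Tpx2, which activates Aurora A at the spindle, was at 81.2, 151, 137, 196, 90.7 and 222 CPM (146 ± 56.1), against 150 ± 31.1 CPM in early cluster A and 109 CPM in late cluster B.

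The proteolytic and phosphatase members of the group were less even still. Ube2c, a ubiquitin-conjugating enzyme of the anaphase-promoting complex, was at 81.2, 348, 119, 111, 72.5 and 215 CPM in spermatogonia (158 ± 106). Espl1, the separase that cuts cohesin, was at 20.3, 60.5, 137, 51.2, 181 and 90.3 CPM (90.1 ± 59.7). These ranges overlapped those of late cluster B, where Ube2c had 105 ± 16.4 CPM and Espl1 84.4 ± 7.69 CPM. Cdc25a, a phosphatase that activates cyclin-dependent kinases, was at 112, 136, 45.7, 162, 218 and 90.3 CPM in spermatogonia (127 ± 59.5), and its mean in late cluster B, 159 CPM, was above that. Wee1, the kinase that opposes it, was at 81.2, 30.3, 64.0, 93.9, 36.3 and 83.4 CPM (64.8 ± 26.3) and had 28.9 CPM in late cluster B. Cdc25b rested on 2 UMIs in spermatogonia (0, 0, 9.14, 0, 18.1 and 0 CPM), so its place in this group cannot be read.

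Early spermatocytes, the cells that enter prophase, held Ccnb3 and the highest levels of Bub1, Top2a, Ube2t and Mad2l1. Ccnb3, a cyclin B known from meiosis, was at 106, 156, 192, 262, 205 and 103 CPM in early cluster A (171 ± 61.6), at 19.6 CPM in early cluster B and at 0.12 CPM in pachytene spermatocytes. It was present in every mouse at the entry to prophase and near 0 from pachytene on. Bub1, the checkpoint kinase, was at 181, 244, 346, 379, 307 and 376 CPM in cluster A (306 ± 79.2). Top2a, the topoisomerase that untangles chromosomes, was at 725, 586, 744, 931, 553 and 731 CPM there (712 ± 134), the highest mean of any member in any cluster. Ube2t, which works in DNA crosslink repair, was at 564, 610, 459, 565, 757 and 576 CPM in cluster B (588 ± 96.8). Over both early clusters together, the 5 most abundant members were Top2a (554 ± 69.8 CPM), Ube2t (483 ± 81.5), Cenpf (407 ± 72.2), Cdc20 (367 ± 67.6) and Cdca8 (293 ± 21.9). In that class Top2a was at 529, 454, 589, 616, 505 and 633 CPM, Ube2t at 474, 515, 373, 461, 620 and 454 CPM and Cenpf at 314, 348, 509, 456, 382 and 433 CPM. Cdc20 was at 403, 289, 331, 339, 482 and 361 CPM and Cdca8 at 261, 295, 272, 312, 310 and 310 CPM. Control and nicotine mice overlapped for each of the 5 except Cdca8, whose nicotine mice were all higher. In the comparison described below, 4.32% of all genes were higher in every nicotine mouse in this class. Mad2l1 reached 72.5 ± 16.3 CPM and Sgo2a, a guardian of centromeric cohesin, 112 ± 23.6 CPM in cluster B.

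By CPM, pachytene spermatocytes held the highest class levels of Pkmyt1 and Fbxo43, which hold division back, whereas Wee1, with a similar role, was highest in spermatogonia. Pkmyt1, which holds Cdk1 inactive, was at 68.9, 85.3, 67.2, 79.2, 71.4 and 66.9 CPM (73.1 ± 7.47). Fbxo43 (Emi2), an inhibitor of the anaphase-promoting complex, was at 51.3, 52.3, 56.0, 59.8, 56.2 and 51.3 CPM (54.5 ± 3.41), and was at 5.87 CPM by late cluster C. Meikin, which keeps sister kinetochores together in the first division, was at 65.4, 59.1, 59.5, 65.7, 62.0 and 43.5 CPM (59.2 ± 8.17). All 3 had lower means in spermatogonia, where Meikin was at 5.53 CPM, Fbxo43 at 8.28 CPM and Pkmyt1 at 8.47 CPM. Cdk2, Bub3, Ttk and Pcna had their highest class here too. The most abundant member in pachytene cells was Ube2t at 402, 424, 376, 456, 479 and 372 CPM (418 ± 43.4), followed by Cdc20 at 359, 337, 292, 328, 351 and 310 CPM (330 ± 25.3). Next came Cdca8 at 280, 281, 289, 287, 325 and 305 CPM (294 ± 17.5), Pttg1 at 275, 245, 215, 259, 246 and 223 CPM (244 ± 22.1) and Birc5 at 228, 216, 202, 200, 192 and 200 CPM (206 ± 13.2). Parts of the anaphase machinery were thus already abundant well before the divisions.

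By CPM, late spermatocytes held the highest class level of the kinase Cdk1, of the cyclins Ccna1, Ccnb1 and Ccnb2, and of Cdc20 and Pttg1, which act at anaphase. Espl1 and Ube2c, which also act there, were highest in spermatogonia. Cdk1 was at 255, 307, 270, 229, 283 and 274 CPM in late cluster B (270 ± 26.3). In late cluster C it was at 112, 137, 93.7, 108, 109 and 134 CPM (116 ± 16.8), lower in 6 of 6 mice by 1.22 on the log2 scale. The cyclins did not share that step. Ccnb1 was at 280 ± 23.3 CPM in cluster B and 326 ± 36.2 in cluster C, Ccnb2 at 457 ± 51.8 and 462 ± 17.5, and Ccna1 at 372 ± 36.9 and 424 ± 40.0. Cdk1 was also abundant in early spermatocyte cluster B (231 CPM), where Ccna1 (26.3 CPM) and Ccnb1 (56.4 CPM) were low.

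The most abundant members in the late class were Cdc20, Aurka, Birc5, Ccnb2 and Pttg1. Cdc20, the activator of the anaphase-promoting complex, was at 526, 528, 533, 490, 572 and 522 CPM in late cluster B and at 605, 720, 621, 583, 578 and 717 CPM in cluster C, where each mouse was higher. Aurka, the spindle pole kinase, was at 559, 533, 520, 499, 531 and 561 CPM in cluster B (534 ± 23.6). Pttg1, the securin that holds separase in check, was at 427, 447, 438, 401, 455 and 430 CPM (433 ± 18.7). Birc5 was at 488, 496, 478, 439, 463 and 435 CPM (466 ± 25.3). Ccnb2 was at 419, 409, 425, 510, 446 and 532 CPM (457 ± 51.8). Over the whole late class the 5 genes were at 565 ± 31.6, 528 ± 15.4, 469 ± 25.2, 437 ± 20.8 and 424 ± 17.9 CPM, in the order named. Plk1, a kinase of mitotic entry and exit, had 210 ± 13.4 CPM in cluster B, 47.2 CPM in spermatogonia and 9.57 CPM in pachytene cells. Aurkc, the germ cell Aurora kinase, was highest in late cluster A, at 115, 129, 160, 99.6, 105 and 111 CPM (120 ± 21.8), and had 3.21 CPM in spermatogonia. Ccna1, Ccnb2, Cdc20, Bub3, Aurka, Aurkc, Plk1, Birc5, Pttg1 and Meikin were higher in every late cluster than in spermatogonia in 6 of 6 mice.

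Transcripts of the division machinery were then followed into the clusters named as spermatids, cells that no longer divide. The name of round cluster A is uncertain, although it held 9 enriched markers of round spermatids. Its round, pachytene and late markers took 0.149, 1.418 and 0.62% of UMIs. In late cluster C they took 0.092, 1.507 and 0.665%, and in round cluster B 0.425, 1.291 and 0.563%. Late spermatocytes may be mixed into cluster A, which was not tested, so its levels need not be carried over. Free RNA reaches every droplet, so the mean UMIs per cell in Leydig, Sertoli, macrophage and stromal cells served as the background. The 40 members summed to 3.16 to 5.43 UMIs per cell in these 4 somatic classes. They summed to 150 in late cluster B (113 to 183 over the mice), 107 in late cluster C, and 85.9, 55.6, 26.2 and 17.6 in round spermatid clusters A to D. Elongating clusters A to E had 8.27, 4.62, 3.68, 3.16 and 2.99 UMIs per cell, so the last of these lay at the somatic level. As a share of all UMIs the sum was lower in elongating cluster A (396 CPM) than in cluster E (894 CPM), where median depth per cell was lowest at 2951 UMIs.

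A member was counted as above background where it exceeded all 4 somatic classes in each of the 6 mice. This held for 35 members in late cluster B, 34 in round cluster A, 33 in B, 25 in C and 20 in D. In the elongating clusters it held for 10 in A (Ccnb1, Ccnb2, Cdc25a, Cdc25c, Aurkc, Birc5, Cenpf, Ube2c, Pkmyt1 and Pcna), 2 in B (Cdc25c and Birc5), 1 in C (Cdc25c) and 0 in D and E. The counts depend on the unit: by CPM, an alternative chosen after seeing the data, they were 20, 12, 1 and 0 in round clusters A to D and 0 in elongating cluster A. In Sertoli cells, which hold few UMIs, the members summed to 3133 CPM at 3.31 UMIs per cell. Ccna2, Cdc25b, Mad2l1, Mki67 and Fbxo43 did not meet the count in any spermatid cluster.

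**Figure D2:**
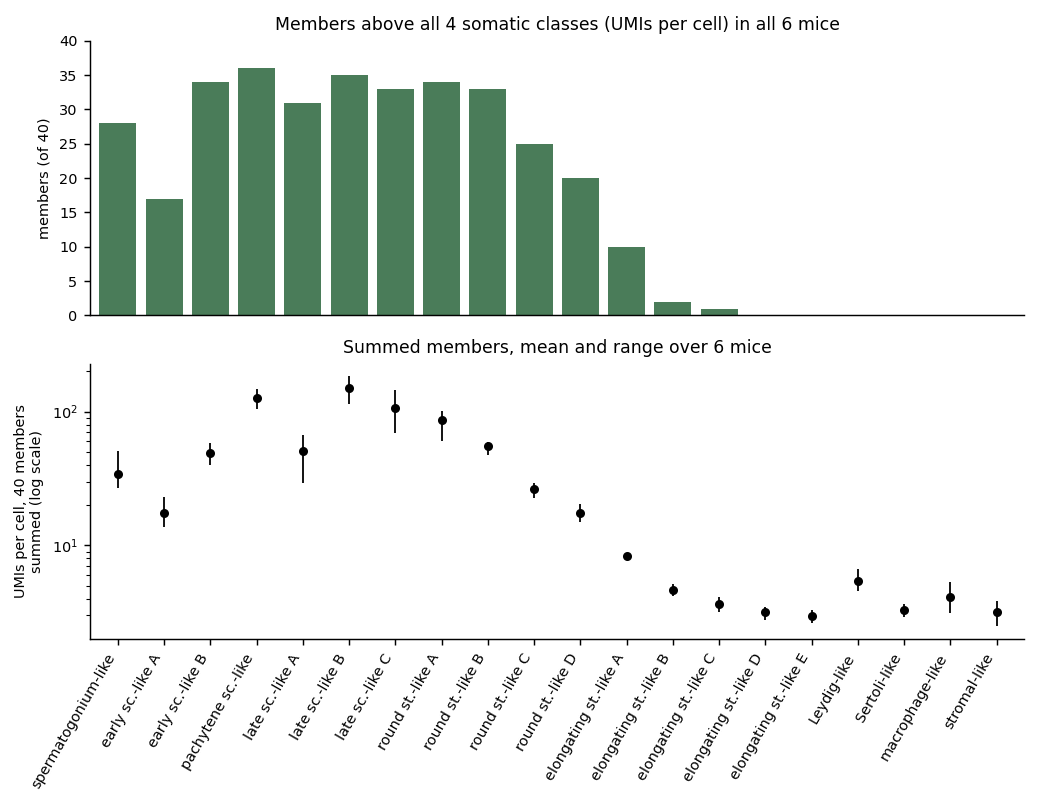
Top, number of the 40 members above all 4 somatic classes in mean UMIs per cell in all 6 mice, for 16 germ cell clusters in order; bottom, UMIs per cell summed over the 40 members (log axis; points are means and bars the range over 6 mice), with the somatic classes at the right. The count is 35 in late spermatocyte cluster B, 20 in round spermatid cluster D and 0 in elongating clusters D and E.

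Levels per cell along the spermatid clusters differed from member to member. Cdk1 had 6.33 UMIs per cell in late cluster B and 1.49, 0.708 and 0.206 in round clusters A, B and C, the last near its somatic range of 0.0844 to 0.160. Cdc20 had at most 12.7 UMIs per cell in the late clusters and 8.33, 4.56, 1.75 and 0.838 in round clusters A to D. Ccna1 had 8.61 in late cluster B and 6.53, 3.91, 1.2 and 0.666 in the same round clusters. By the count above, Cdk1 was last above background in round cluster C, and Cdc20 and Ccna1 in round cluster D. Ccnb2 stayed above background into the elongating clusters, as Ccnb1 did, with 10.5 UMIs per cell in late cluster B, 8.60, 7.84, 5.69 and 3.56 in round clusters A to D and 0.695 in elongating cluster A. In elongating cluster B it was at 0.289, inside its somatic range of 0.218 to 0.290. Ccnb2 was the most abundant member of the round spermatid class, at 281, 300, 303, 314, 323 and 315 CPM (306 ± 15.0). Birc5 followed at 168, 169, 151, 162, 175 and 152 CPM (163 ± 9.76) and Cdc20 at 164, 164, 144, 147, 166 and 144 CPM (155 ± 10.7). Every mouse had more Ccnb2 than either. Ccna1 was at 129, 136, 121, 116, 132 and 113 CPM (125 ± 9.23) and Ccnb1 at 113, 129, 115, 107, 125 and 105 CPM (116 ± 9.56).

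Birc5, a subunit of the passenger complex, stayed above background further along the order than Incenp, Cdca8 and Aurkb. It had 10.9 UMIs per cell in late cluster B and 7.02, 4.34, 2.33 and 2.09 in the round clusters. It still had 1.52 in elongating cluster A and 0.947, 0.853, 0.848, 0.864, 0.931 and 0.777 in elongating cluster B, where its somatic range was 0.211 to 0.300. In the elongating class Birc5 was the most abundant member, at 65.0, 62.8, 54.6, 75.8, 71.5 and 68.3 CPM (66.3 ± 7.40). Cdc20 was at 38.3, 36.3, 33.8, 40.6, 40.6 and 43.1 CPM, Ccnb2 at 30.5, 30.6, 36.9, 40.4, 38.4 and 42.1 CPM, Pttg1 at 37.9, 31.6, 28.2, 37.2, 35.5 and 39.4 CPM and Aurka at 29.1, 27.4, 24.8, 31.5, 30.4 and 32.2 CPM. These last 4 lay at or near the somatic level per cell over most of the class. Bub3 and Pttg1 had 0.592 and 0.906 UMIs per cell in Leydig cells, which sets their place in these counts. In the other somatic classes they had 0.116 to 0.211 and 0.277 to 0.343. Whether Leydig cells express them was not tested.

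A few members were higher in a round spermatid cluster than in the cluster before it. Cdc25c, a phosphatase that activates Cdk1, was at 10.8 CPM in late cluster B and at 21.7, 21.0, 21.1, 20.6, 17.1 and 19.3 CPM in round cluster B (20.1 ± 1.67), above round cluster A in 6 of 6 mice. Its somatic range was 0.00152 to 0.00567 UMIs per cell, against 0.0401 in elongating cluster C. Bub1 was at 42.5 CPM in late cluster C, 67.2 in round cluster A and 81.2, 85.8, 83.5, 84.0, 88.1 and 79.9 CPM in round cluster B, each step higher in 6 of 6 mice, though below its 125 CPM in spermatogonia. Meikin was at 23.1, 29.9 and 35.1 CPM along the same 3 clusters. Kif11 was at 36.0 CPM in late cluster B, 8.39 in late cluster C and 22.9 in round cluster A, the last step higher in 6 of 6 mice. Ube2t had 0.275 UMIs per cell in round cluster C and 0.418 in round cluster D. Pcna, the sliding clamp of DNA replication, was at 65.4, 65.0, 71.3, 66.8, 72.3 and 65.6 CPM in round cluster C and at 99.7, 101, 90.1, 95.4, 90.9 and 90.1 CPM in round cluster D. It was higher in cluster D in 6 of 6 mice, also per cell (2.37 against 1.53 UMIs), and stood at 36.4 CPM in elongating cluster A. Its mean level in late clusters A to C was higher than in any round cluster, at 209, 166 and 138 CPM.

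**Figure D3:**
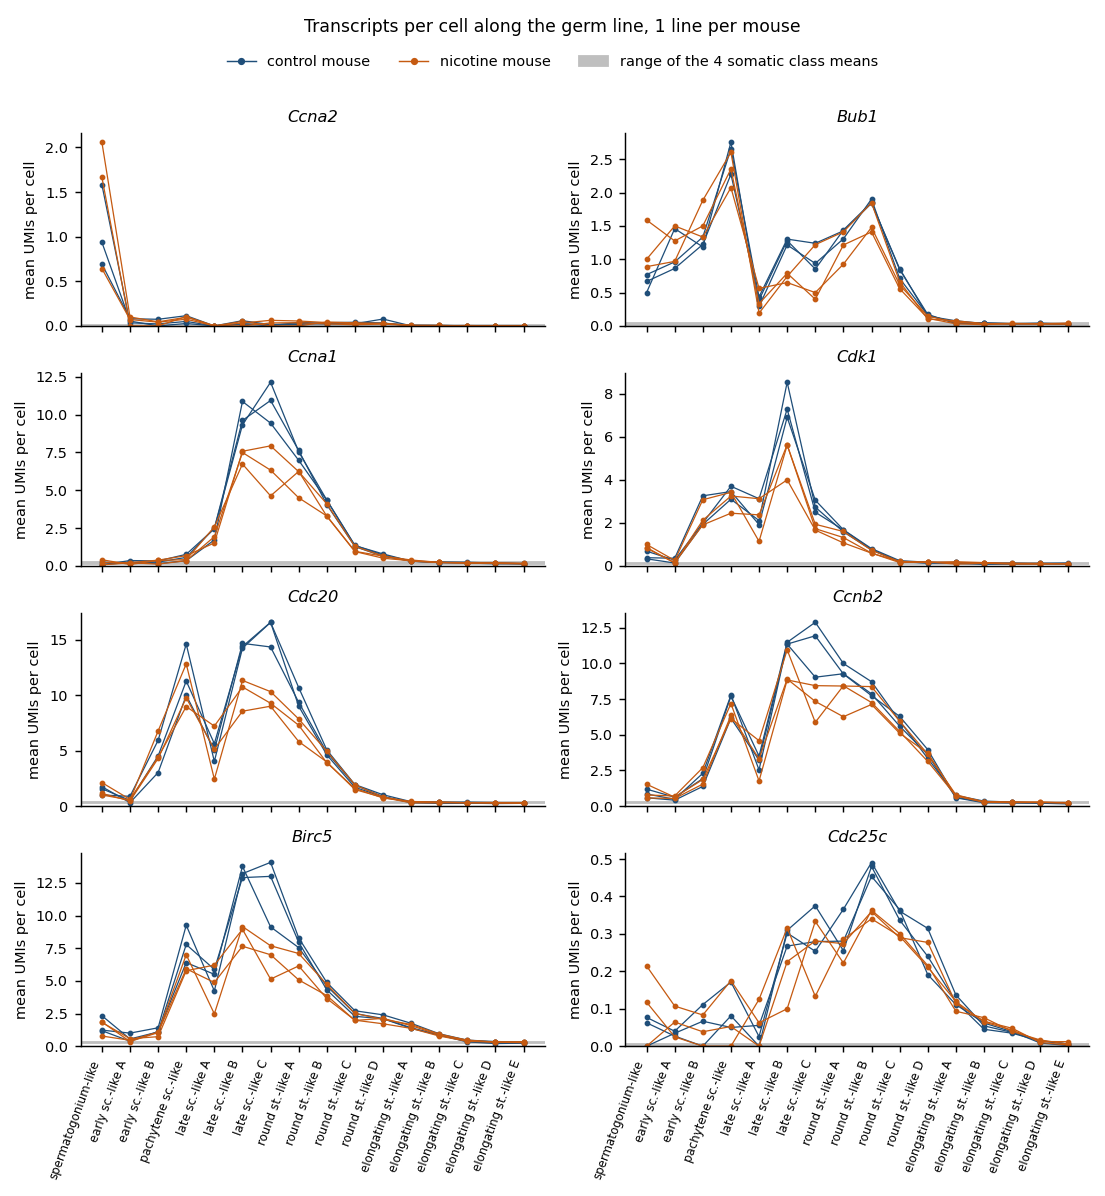
Mean UMIs per cell of 8 members along the 16 ordered germ cell clusters, 1 line per mouse (blue control, orange nicotine); the grey band spans the means of the 4 somatic classes. The mean of Cdk1 nears the band in round cluster D (0.164) and first lies inside it in elongating cluster A (0.148). Ccnb2 reaches the band in elongating cluster B, and Cdc25c is highest in round cluster B at 0.414 UMIs per cell. In late clusters the nicotine mice lie lower per cell, where their cells also held fewer UMIs.

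Nicotine and control mice were compared in 15 classes with at least 20 cells in every mouse, by edgeR's quasi-likelihood test on UMI sums per mouse and Benjamini-Hochberg adjustment over all genes of a class. Of 472 tests of a member in a class, 1 passed the adjusted threshold of 0.05: Ccnb2 in low-UMI round spermatids. Cdc25b was too low to be tested in any class.

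In the mitotic and early meiotic cells no member passed. Spermatogonia were too few in some mice, so they were pooled with early spermatocytes (65 to 86 cells per mouse). This pool had 0 of 7947 genes called (0.0%) and 266 genes (3.35%) with an unadjusted p under 0.05, among them 4 of the 35 members tested. The members' median log2 fold change was 0.13, against 0.00 over all genes. Cdc25a had normalized levels of 48.1, 35.3 and 35.3 CPM in control and 80.4, 60.7 and 93.0 CPM in nicotine mice, and the groups did not overlap. Its log2 fold change was 0.98 (SE 0.255, adjusted p = 1.0 by edgeR, 165 UMIs). Meikin had the reverse order of means, with 46.1, 65.1 and 35.3 CPM in control and 18.4, 42.0 and 15.5 CPM in nicotine mice, and the groups overlapped (log2 -0.96). Bub1 had 135, 164 and 184 CPM against 202, 203 and 246 CPM, without overlap (log2 0.43). In all, 3 members were higher and 3 lower in every nicotine mouse, against 3.89 and 4.39% of all genes.

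The make-up of that pool differed among mice. Early cluster B, where Cdc25a was low (21.3 CPM) and Meikin high (47.8 CPM), gave 58.0, 70.4 and 50.5% of its UMIs in control and 50.4, 66.5 and 41.7% in nicotine mice. Its part in these values was not tested. Fitted within single clusters, Cdc25a had a log2 fold change of 1.34 in early cluster A (SE 0.421, adjusted p = 0.796 by edgeR), Meikin -0.80 in early cluster B (SE 0.382, adjusted p = 1.0), and Bub1 0.44 in cluster A and 0.34 in cluster B. In the early class without spermatogonia (0 of 7019 genes called, 0.0%), Cdc25a had 33.1, 21.2 and 32.3 CPM against 49.8, 37.4 and 93.4 CPM (log2 1.04), without overlap. Meikin had 54.4, 74.1 and 42.2 CPM against 24.9, 48.1 and 16.1 CPM (log2 -0.90) and Bub1 142, 169 and 213 CPM against 230, 211 and 271 CPM (log2 0.44), both with overlap. In this early class 2 members (Cdc25a and Cdca8) were higher and 2 (Pttg1 and Wee1) lower in every nicotine mouse, against 4.32 and 4.29% of all genes. An unadjusted p under 0.05 by edgeR was found for 3 members and 3.35% of all genes. Spermatogonia on their own, tested as an alternative added after seeing the data, had 2 of 2743 genes called (0.0729%) and 0 of 23 members.

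In pachytene spermatocytes 0 of 9044 genes (0.0%) and 0 of 35 members passed, and 1 member had an unadjusted p under 0.05, as did 3.84% of all genes. The members with the smallest p were Mad2l1, Kif11 and Cdk2, at log2 fold changes of -0.50, -0.31 and -0.30. Kif11 had 54.7, 67.1 and 53.4 CPM in control and 42.8, 51.2 and 45.8 CPM in nicotine mice, and Cdk2 had 48.9, 56.0 and 55.5 CPM against 47.9, 45.4 and 34.4 CPM. Both were without overlap between the groups. So were 2 members that were higher in nicotine mice, Aurka at 102, 117 and 112 against 134, 126 and 119 CPM and Incenp at 28.5, 19.5 and 27.8 against 33.4, 30.3 and 30.9 CPM. Of all genes, 4.44% were higher and 4.56% lower in every nicotine mouse. Mad2l1 had 34.3, 37.4 and 28.5 CPM against 20.5, 20.2 and 32.1 CPM, with overlap.

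In late spermatocytes, where the meiotic divisions are read, 0 of 8957 genes (0.0%) passed, and 177 genes (1.98%), with 1 of the 35 members tested, had an unadjusted p under 0.05. That member was Cdca8, at 244, 285 and 291 CPM in control and 341, 305 and 356 CPM in nicotine mice (log2 0.29, SE 0.102, adjusted p = 1.0 by edgeR). Birc5 had 515, 483 and 496 CPM against 463, 446 and 456 CPM (log2 -0.13), and Ccnb2 had 426, 418 and 430 CPM against 468, 446 and 476 CPM (log2 0.12). These 3 were the members without overlap between the groups, and their differences were small. Of all genes, 3.48% were higher and 3.74% lower in every nicotine mouse in this class. The members lay above 0 in 18 and below it in 17 cases, with a median of 0.00.

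Per cell, Ccnb2 was lower in every nicotine mouse. It had 9.37, 9.58 and 9.41 UMIs per late spermatocyte in control and 6.65, 6.92 and 6.77 in nicotine mice. Late spermatocytes of nicotine mice held fewer UMIs, with a median of 15880, 16990 and 17181.5 in control and 11943, 13460.5 and 12165 in nicotine mice. In late cluster B the members together made up 0.624, 0.658 and 0.633% of UMIs in control and 0.650, 0.654 and 0.656% in nicotine mice. Less RNA per cell, a different mix of late cells and shallower libraries cannot be told apart here.

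In round spermatids 0 of 18280 genes (0.0%) and 0 of 38 members passed. Ube2t had the smallest p, at 14.7, 13.7 and 13.6 CPM in control and 18.8, 16.1 and 15.8 CPM in nicotine mice (log2 0.28, SE 0.092, adjusted p = 0.913 by edgeR). Mki67 was low, at 0.976, 1.06 and 1.10 CPM against 0.752, 0.842 and 0.697 CPM. Ccnb2 had 286, 297 and 297 CPM against 310, 322 and 323 CPM (log2 0.12). The groups did not overlap for any of these 3, and 4.76% of all genes were higher and 4.59% lower in every nicotine mouse. The members' median was -0.04, against -0.01 over all genes, with 14 above and 24 below 0.

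In elongating spermatids 1 of 15144 genes (0.0066%) passed and 0 of 36 members. Ccnb2 had 32.04, 30.5 and 37.1 CPM in control and 38.7, 38.7 and 41.7 CPM in nicotine mice (log2 0.26), without overlap. Meikin had 5.21, 4.57 and 4.90 CPM against 6.09, 7.07 and 6.07 CPM (log2 0.38), and Top2a 10.1, 9.51 and 9.71 CPM against 10.8, 11.7 and 12.6 CPM (log2 0.26). At an unadjusted p under 0.05 there were 3.80% of all genes and 5 members, all 5 higher. In every nicotine mouse 6 members were higher and 0 lower, against 6.04 and 3.53% of all genes. Over the members the median was 0.14, with 31 above 0 and 5 below, against 0.01 over all genes. Most of these members are at or near the somatic level in elongating cells, as described above.

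The single call, Ccnb2 in low-UMI round spermatids, came from the class with the most calls of all: 652 of 14604 genes (4.46%), of which 585 (4.01%) were lower and 67 (0.459%) higher in nicotine mice. Ccnb2 had normalized levels of 167, 171 and 179 CPM in control and 205, 225 and 223 CPM in nicotine mice, without overlap. The log2 fold change was 0.34 (SE 0.077, adjusted p = 0.0078 by edgeR). Per cell this was 0.207 to 0.254 UMIs in control and 0.255 to 0.311 in nicotine mice. Single mice ran from 0.111 to 0.372 in the 4 somatic classes, so per cell the class lay within the range of the background. By CPM, its normalized levels were close to those of Sertoli cells and above those of Leydig cells, both given below. The class joins 4 clusters, and its make-up differed between groups. The cluster numbered 6 made up 7.97, 8.35 and 8.24% of its cells in control and 13.2, 17.1 and 10.0% in nicotine mice, without overlap. Cluster 15, with 5891 cells and a median of 823 UMIs, held 10 markers of elongating and 7 of round spermatids, so its name is uncertain. Clusters 4, 5 and 6 drew 10.8 to 11.9% of their UMIs from very long genes. Within clusters 4, 5, 6 and 15 Ccnb2 had log2 fold changes of 0.43, 0.38, 0.12 and 0.38, none passing (adjusted p = 0.152 to 0.911 by edgeR). The call was lost with cells of at least 1000 UMIs (log2 0.28, adjusted p = 0.153 by edgeR), with finer clusters (0.21, adjusted p = 0.230) and with clusters built with the members (0.13, adjusted p = 0.574).

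Ccnb2 was above 0 in all 15 classes tested, and in 8 of them every nicotine mouse was above every control mouse. Those 8 classes included Sertoli cells (209, 218 and 224 CPM against 263, 255 and 299 CPM), Leydig cells (42.7, 30.2 and 42.9 CPM against 44.3, 62.7 and 67.2 CPM, log2 0.59) and stromal cells (103, 85.6 and 134 CPM against 218, 190 and 212 CPM, log2 0.87). The gene passed the test in none of these 3 somatic classes. In single classes, 3.38 to 9.53% of all genes were higher in every nicotine mouse. How many genes were so in as many classes as Ccnb2 was not counted. All 15 classes come from the same 6 mice, and the pool with spermatogonia contains the early class, so they do not repeat the comparison independently. Sertoli cells had 24 of 7759 genes called (0.309%), all lower in nicotine mice, and 0 of 31 members. Espl1 had 37.2, 34.3 and 31.1 CPM against 47.7, 43.6 and 59.4 CPM there (log2 0.56), and Cdc20 252, 260 and 222 CPM against 300, 284 and 291 CPM (log2 0.26), without overlap. Of the members, 9 were higher and 0 lower in every nicotine mouse, against 6.70 and 7.05% of all genes. An unadjusted p under 0.05 was found for 4 members and for 8.25% of all genes. Leydig and stromal cells had 0 of 6367 and 0 of 3650 genes called (0.0% each) and 0 of 12 and 0 of 10 members. In Leydig cells 2 members (Birc5 and Ccnb2) were higher and 0 lower in every nicotine mouse, against 5.09 and 4.95% of all genes. For stromal cells it was 1 (Ccnb2) and 0, against 5.59 and 7.59%. In Leydig cells Ccna1 had 32.5, 30.2 and 23.4 CPM against 25.9, 51.7 and 33.6 CPM and Cdk1 30.5, 26.6 and 29.2 CPM against 29.6, 14.8 and 21.0 CPM, and in stromal cells Ccna1 had 86.2, 68.5 and 56.3 CPM against 163, 82.8 and 106 CPM and Ube2t 126, 59.9 and 108 CPM against 123, 166 and 159 CPM. The groups overlapped for these. In low-UMI round spermatids 12 of the 38 members had an unadjusted p under 0.05, all higher in nicotine mice, where 18.3% of all genes had one. There, 11 members were higher and 1 (Cdc25c) lower in every nicotine mouse, against 9.53 and 12.7% of all genes.

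Markers of elongating spermatids had lower group means in the nicotine mice in these classes. They took 1.99, 1.38 and 1.82% of UMIs in control and 1.12, 0.980 and 1.42% in nicotine mice in low-UMI round spermatids, and 2.65, 1.87 and 2.87% against 1.66, 1.34 and 1.87% in Sertoli cells. Their part in the result was not tested.

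**Figure D4:**
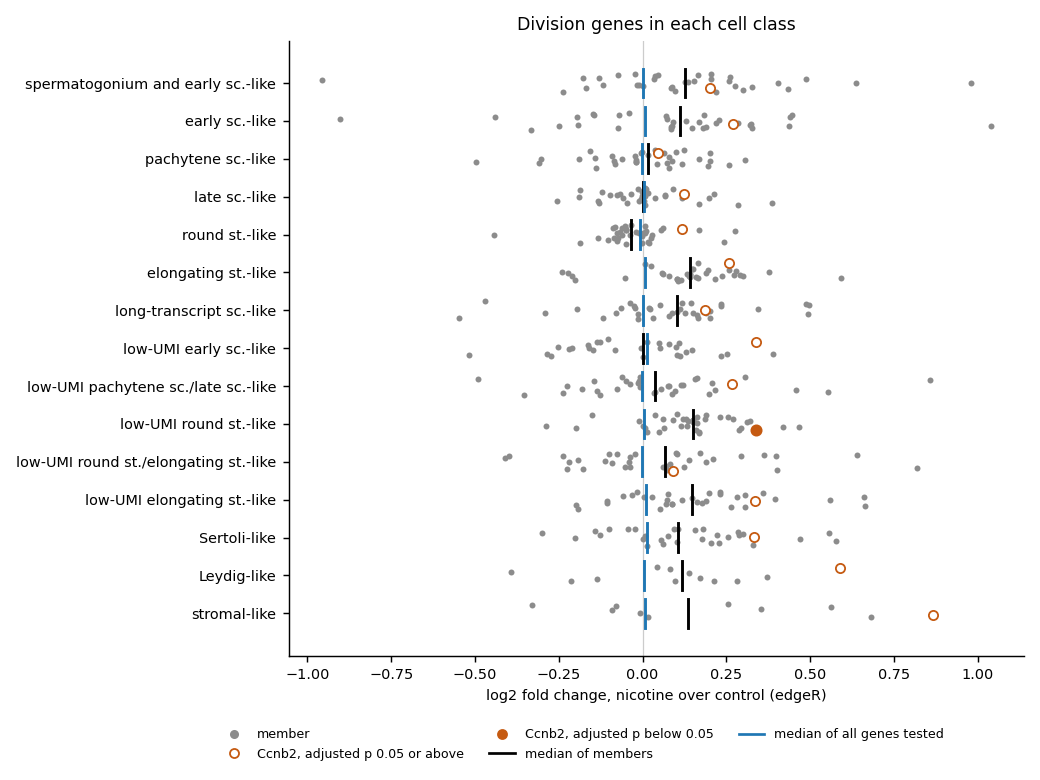
Log2 fold change, nicotine over control (edgeR), of each member tested in 15 cell classes; grey points are members, orange circles Ccnb2 (filled where the adjusted p was below 0.05), black bars the members' median and blue bars the median of all genes tested. Ccnb2 is filled in low-UMI round spermatids (0.34) and lies right of 0 in every class.

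The remaining classes added no called member. The long-transcript spermatocytes had 0 of 10289 genes (0.0%) and 0 of 37 members called. Ccnb1 had 35.7, 31.2 and 32.4 CPM in control and 50.6, 48.9 and 40.1 CPM in nicotine mice (log2 0.49), Plk1 28.9, 29.5 and 33.2 CPM against 34.9, 48.3 and 46.7 CPM (log2 0.50) and Cdc25a 33.4, 33.8 and 23.9 CPM against 44.4, 50.8 and 33.0 CPM (log2 0.49). The groups overlapped for Cdc25a. In all, 5 members were higher and 0 lower in every nicotine mouse, against 5.02 and 5.87% of all genes. There, 4 members and 6.01% of all genes had an unadjusted p under 0.05. In the low-UMI pachytene and late class (2 of 8292 genes called, 0.0241%; unadjusted p under 0.05 for 5 members and 6.21% of all genes), Cdc25a had 71.0, 68.2 and 60.3 CPM in control and 91.7, 101 and 100 CPM in nicotine mice (log2 0.55, adjusted p = 0.541 by edgeR). Plk1 had 82.5, 65.8 and 73.7 CPM against 97.1, 123 and 85.0 CPM (log2 0.46), and Meikin 15.3, 9.74 and 20.1 CPM against 30.6, 28.9 and 23.8 CPM (log2 0.86). The groups did not overlap for these 3. In this class 4 members were higher and 3 (Bub1, Ccna1 and Cdc20) lower in every nicotine mouse, against 5.67 and 5.64% of all genes. In the low-UMI round and elongating class (0 of 9131 genes called, 0.0%; unadjusted p under 0.05 for 2 members and 2.45% of all genes), Plk1 had 19.3, 24.8 and 20.9 CPM against 37.7, 33.4 and 29.4 CPM (log2 0.64, adjusted p = 0.999 by edgeR), without overlap. Fbxo43 had 5.32, 3.54 and 4.29 CPM against 7.69, 9.94 and 7.09 CPM (log2 0.82), also without overlap, and Meikin 11.6, 12.7 and 9.12 CPM against 10.8, 17.7 and 15.2 CPM (log2 0.40), with overlap. In that class 2 members were higher and 1 (Bub1b) lower in every nicotine mouse, against 3.38 and 3.88% of all genes. The low-UMI elongating class had 2 of 7003 genes (0.0286%) and 0 of 33 members called. There Ccnb2 had 140, 133 and 134 CPM against 158, 179 and 180 CPM (log2 0.34), Ttk 16.6, 15.2 and 14.4 CPM against 23.3, 22.2 and 28.4 CPM (log2 0.66) and Top2a 44.5, 51.3 and 50.6 CPM against 58.8, 63.1 and 69.3 CPM (log2 0.40), all without overlap. Here 6 members were higher and 0 lower in every nicotine mouse, against 6.87 and 6.88% of all genes. An unadjusted p under 0.05 was found for 4 members and 8.60% of all genes. The low-UMI early class had 0 of 6329 genes (0.0%) and 0 of 29 members called, with 3.00% of all genes and 0 members at an unadjusted p under 0.05. Its smallest p belonged to Ccnb2 (217, 173 and 163 CPM against 216, 263 and 223 CPM), Cdc25a (42.1, 44.8 and 34.1 CPM against 45.6, 11.4 and 23.3 CPM) and Bub3 (197, 170 and 200 CPM against 166, 149 and 160 CPM). In the low-UMI early class 0 members were higher and 1 (Bub3) lower in every nicotine mouse, against 3.9 and 4.22% of all genes. Across 31 single clusters tested as an added alternative, 0 members were called.

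The difference of the nicotine effect between stages was tested directly. Between late spermatocytes and the pool of spermatogonia with early spermatocytes, 0 of 9674 genes (0.0%) and 0 of 38 members differed in their effect. At an unadjusted p under 0.05 there were 365 genes (3.77%) and 5 members, with Cdc25a at a difference of -0.99 log2 (adjusted p = 0.964 by edgeR). Between round spermatids and late spermatocytes the test, which asks whether the level carried into round spermatids differs between groups, gave 0 of 17614 genes (0.0%) and 0 of 38 members. At an unadjusted p under 0.05 it gave 663 genes (3.76%) and 1 member, Birc5 (0.20 log2).

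Related genes were read beside the members. Of 56 other division genes and 34 S phase replication genes, 0 were called in any class. In late spermatocytes, 46 and 18 of them were tested, with median log2 fold changes of -0.02 and 0.01, against 0.00 over all genes. In the pool of spermatogonia and early spermatocytes, 49 and 29 were tested, with medians of 0.01 and 0.17.

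The shares of cells in which the divisions are read were compared as well. Late cluster B, where Cdk1 was highest, made up 0.398, 0.873 and 0.382% of the cells of the control mice and 0.202, 0.314 and 0.181% of the nicotine mice. Every nicotine mouse was lower (two-sided exact permutation p = 0.1, adjusted 0.26). With 3 mice against 3 this test cannot go below 0.1, and 15 of the 39 clusters had shares without overlap, 8 higher and 7 lower in nicotine mice. Among the classes without overlap were the joint pachytene and late class, lower in every nicotine mouse (log2 -1.31), and the low-UMI pachytene and late class and the long-transcript spermatocytes, higher in every one (log2 0.44 and 0.62; exact p = 0.1 and adjusted p = 0.243 for each of the 3). The late class as a whole made up 1.42, 1.75 and 0.745% against 0.484, 0.850 and 0.696%, with overlap (exact p = 0.2). Spermatogonia made up 0.120, 0.122 and 0.145% against 0.141, 0.0911 and 0.162% (exact p = 1.0).

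**Figure D5:**
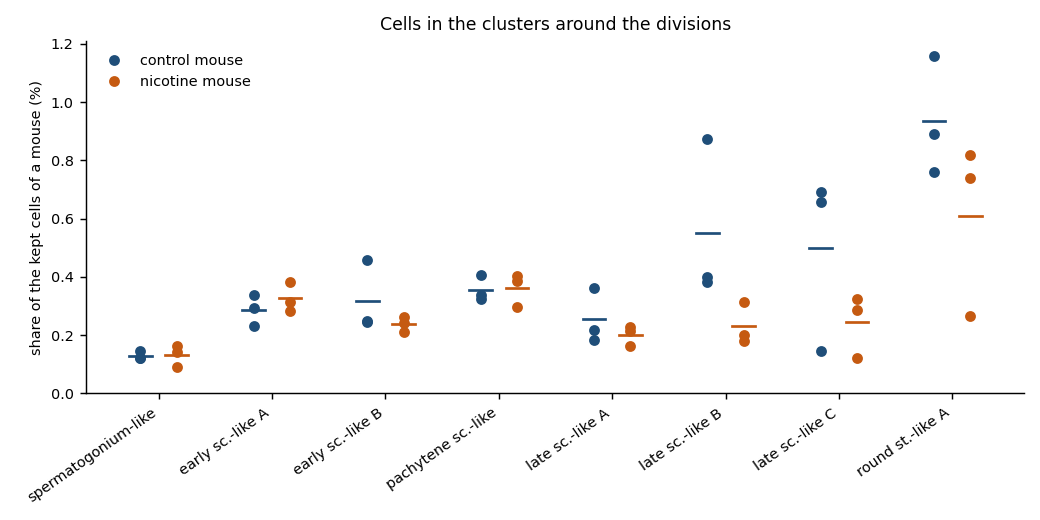
Share of the kept cells of each mouse (%) in 8 germ cell clusters around the divisions; points are mice (blue control, orange nicotine) and bars group means. In late spermatocyte cluster B the 3 nicotine mice lie between 0.181 and 0.314%, below the 3 control mice at 0.382 to 0.873%.

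Of the 40 members, 19 overlap another gene on the opposite strand, 11 of them a protein-coding gene (Ccna2 overlaps Exosc9, Cdc20 overlaps Elovl1). No label states whether counting used strand, so reads of such neighbours cannot be told apart.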

How the data were processed

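Whole-testis single-cell 3′ RNA sequencing of 3 control and 3 nicotine mice was analysed. The authors deposited raw UMI counts per gene and cell for each mouse; Cell Ranger 7.2.0 and the build GRCm38 (mm10) are named in the submitters' processing notes, and further settings are not given in the sources used here. Barcodes stayed in when they held 500 or more UMIs, 250 or more genes and a mitochondrial share under 20%. Doublets were scored with Scrublet in scanpy 1.11.5 and the top 0.8% per 1000 cells were removed (8.62 to 9.76% of cells), since Scrublet's own threshold marked 0.0 to 1.29%. Total UMIs per mouse ran from 67853893 to 88329607.

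Cells were clustered (2000 variable genes, 30 principal components, 15 neighbours, Leiden resolution 1) without the members and without the lists of other division and replication genes. Naming a class took 3 markers, each 1.5-fold enriched and seen in 10% of cells, and some clusters carry a joint name. Clusters of 2471 and 312 cells met this but stayed unnamed. The leading genes of the first were mostly mitochondrial, and those of the second held more markers of another class. Both scored highest for pachytene markers. Differences from other accounts of these cells may come from these rebuilt names. For detection, cells were thinned to 3000 UMIs.

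For each class, 1 UMI sum per gene and mouse entered edgeR 4.0.16 (quasi-likelihood, TMM, R 4.3.3), with Benjamini-Hochberg adjustment over all genes at 0.05, in classes with 20 cells in each mouse; DESeq2 1.42.0 was an alternative. The scripts were tested on simulated data. Shares were compared by exact permutation tests over mice. The members and gene lists were chosen with earlier results of these data known. Named in full were called members, the 3 with the smallest p in each class without a call, the 5 most abundant per stage and those highest in spermatogonia, where some clusters stand for their class. The correlation of same-numbered mice was not above 0.1 for every pair in any of the 5 classes checked, so the numbers were not taken to pair the mice.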

Additional observations from a re-analysis of the deposited data

How the results depend on the processing

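Over the comparisons' main counts and values, 261 of 293 alternatives kept direction and call, 20 moved a count and 12 turned the sign of a small difference in shares; for single genes it was 599 of 605. In low-UMI round spermatids the 1 called member became 3 without a filter on low counts, 0 with cells of at least 1000 UMIs, 0 with finer clusters and 0 with clusters built with the members, and 1 to 3 when 1 mouse was left out (3 without control 1, 2 without nicotine 2). The genes called in that class ran from 1 to 1363 around 652. With finer clusters, early spermatocytes had 2 called members (450 genes in all) and the pool with spermatogonia 1 (211 genes in all), Cdc25a at log2 0.86 (adjusted p = 0.0127 by edgeR). That early class was not the same set of cells as in the main run. It also held clusters of 235 and 162 cells, led by Gm3455 and Syt16 and by Neb and Ecm2. In the main run these genes led the low-UMI pachytene and late class. The test between late spermatocytes and that pool had 1 called member without a filter on low counts. Ube2t in round spermatids turned to -0.29 with clusters built with the members. The causes were not tested. Sertoli cells had 0 to 159 genes called around 24, round spermatids 0 to 50 around 0, elongating spermatids 0 to 22 around 1 and low-UMI elongating spermatids 0 to 46 around 2.

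With 1 mouse left out, the log2 ratio of shares (nicotine over control) ran from -0.154 to 0.231 in spermatogonia, -0.241 to 0.0859 in early, -0.0644 to 0.149 in pachytene and -0.0873 to 0.136 in round cells, and from -1.53 to -0.75 in late cluster B. By UMIs per cell in place of CPM, 3 members were highest in spermatogonia, 1 in early and 22 in pachytene cells. By CPM in place of UMIs per cell, an added alternative, 20, 12, 1 and 0 members lay above the somatic classes in round clusters A to D and 0, 0 and 0 in elongating clusters A to C.

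A fit with the replicate number as a block gave 6 called members in low-UMI round spermatids. The correlations of same-numbered mice were -0.25, 0.10 and -0.06 in late, -0.05, 0.34 and 0.09 in round and -0.07, 0.18 and 0.08 in elongating cells, -0.01, 0.24 and 0.06 in the pool and 0.04, 0.18 and 0.13 in Sertoli cells. Number 2 was positive throughout, but they do not establish a pairing. Late spermatocytes were not run with clusters built with the members, and some low-UMI classes were not run with other clusters, because too few cells carried the name. Spermatogonia, with 9 to 17 cells per mouse, limit what can be seen of the mitotic side.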
